A study of Homo sapiens with 8 samples.

Results

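The transcripts described here are those of 149 zinc finger genes whose symbol is ZNF followed by a number, in 2 prostate cancer cell lines. The array's annotation gives 889 probe sets to 424 such genes alone, with ZNF473 left out. A gene's values are those of whichever probe set had the highest mean, and the 149 members were selected on a mean log2 signal of at least 6 over the 8 arrays. The mean level is thus a description. The threshold uses no difference between arrays, but the members were chosen with earlier results of these data known. The other 275 ZNF genes lay under 6, and 129 of these still averaged 4 or more. Over the whole array 8169 of 19775 genes reach a mean of 6 in the same way (41.3%, against 35.1% of ZNF genes), and these 8169 genes serve as the background.
LNCaP is a line from a lymph node metastasis of prostate cancer, and 22Rv1 is a line derived from the tumour CWR22, carried as a xenograft. There were 4 arrays per line, from 1 plate each, with no array repeated. The plates of each line were cells in 2 μg/ml actinomycin D with 10 mM caffeine for 4 hours after a first 4 hours in caffeine, cells in actinomycin D alone for 4 hours after the same caffeine step, cells after 4 hours in 10 mM caffeine, and untreated cells. Caffeine served to inhibit nonsense-mediated mRNA decay (NMD), which degrades transcripts with premature stop codons, and actinomycin D stops transcription. All plates of a line come from that line's culture, so they are not separate donors.
Differences between log2 signals are named as follows. Accumulation is the signal with caffeine less that of untreated cells. Decay is the signal with actinomycin D alone less that with caffeine. Degradation is the excess of the signal with actinomycin D and caffeine over that with actinomycin D alone, so that a high value marks a transcript kept by caffeine. Loss with caffeine kept is the signal with actinomycin D and caffeine less that with caffeine, and the line difference is LNCaP less 22Rv1, averaged over the 4 treatments. These comparisons share arrays, and decay plus degradation equals the loss with caffeine kept. A difference of 1 on the log2 scale is a change of the signal by a factor of 2. With 1 array per treatment in a line, counts within a line have no test. Changes shared by the lines were tested in limma over 21453 probe sets, with cell line as a block and a gene called at a Benjamini-Hochberg adjusted p under 0.05. For the treatments the 2 lines are the replicates. Each p-value sets the mean change over both lines against a spread that comes from how far the lines differ in response over all 4 treatments. The gap between the lines in response was itself not tested. For the line difference the 4 differently treated plates of 1 culture per line stand in for replicates, so those p-values say nothing of the spread between cultures of a line.

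A C2H2 zinc finger is a short protein loop folded around a zinc ion, and a row of such fingers reads a stretch of DNA or, in some proteins, RNA. The largest group of ZNF genes adds a KRAB domain, which recruits the corepressor TRIM28 and with it the histone methyltransferase SETDB1 to silence retroelements and other targets. Many of these genes lie side by side in clusters on chromosome 19. Other ZNF proteins bind promoters as activators, serve in chromatin complexes, at the mitotic spindle, in the spliceosome or at the ribosome. Messenger RNAs of regulatory genes, zinc finger genes among them, are known as a class for short half-lives.

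All arrays were normalized to the same distribution, so a signal places a transcript among the other transcripts of its array. The poly-A control probe sets, from RNA added during labelling, were higher with actinomycin D alone than with caffeine by 1.59 in LNCaP and 1.18 in 22Rv1. Centring on them would lower every decay by these amounts and every loss with caffeine kept by 1.19 and 0.76, and would raise accumulation by 0.20 and 0.28, degradation by 0.40 and 0.42 and the line difference by 0.44. The 18 hybridization control probe sets shifted by 0.62 in LNCaP and 0.08 in 22Rv1 in decay, and by -0.51 and -0.13 in accumulation. The ACTB signal at the 3 prime end less that at the 5 prime end, a sign of RNA integrity, differed by -0.86 in LNCaP and -0.52 in 22Rv1 between actinomycin D alone and caffeine, and that of GAPDH by -0.08 and -0.11. The part of the hybridization controls and of RNA integrity in these differences was not tested. The poly-A shifts are the same for members and background, so each value is given beside that of the other genes. The 3 probe sets for 18S ribosomal RNA averaged 11.71 on the LNCaP array with actinomycin D and caffeine, against 4.09 to 6.25 on the other LNCaP arrays and 5.09 to 7.08 in 22Rv1. The part of this in degradation and in the loss with caffeine kept of LNCaP was not tested, and the 22Rv1 values beside them do not use that array. The prostate epithelium markers KLK3, KLK2, TMPRSS2, FOLH1, KRT8, KRT18 and HOXB13 were at 5.56 to 13.38 on all arrays. The 8 markers of other cell types with a probe set were at 2.27 to 2.95, except COL1A1 at 5.29 to 8.65.

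Promoters were read for 132 of the 149 members in the RefSeq table of GRCh38.p14, and short motifs were searched on both strands in the 250 bases before the start. The letters CCGGAAG, the core bound by ETS factors, stood in 32.6% of member promoters, against 19% of the promoters of all genes with a mean of at least 6 and 8.82% of all promoters. ACTACA, part of the motif of the promoter activator ZNF143, stood in 19.7% of member promoters, against 8.51% and 7.76%, and in 29.6% of those on chromosome 19. The cAMP response element TGACGTCA, a palindrome, was in 7.58% of member promoters, against 3.36% and 1.77%. The GC box GGGCGG was about as frequent in members as in the other genes at this level (71.2%, against 70.1%, and 42.3% of all), CCAAT stood in 47.7%, against 37.2% and 33.0%, and the E-box CACGTG, also a palindrome, in 6.06%, against 10.1% and 6.49%. These are matches of letters with no test, and no motif contains another on either strand.
The last 150 bases before the start are printed for 7 members because the values below turn on them. ZNF627, ZNF766 and ZNF281 were called lower in decay, and ZNF91 was the one member called higher. ZNF217 had the lowest loss with caffeine kept, ZNF418 led the accumulation, and ZNF143 encodes the activator named above. Capitals mark any of the 6 motifs on either strand, and adjoining matches run together.
ZNF627, chr19:11597333-11597482, plus strand: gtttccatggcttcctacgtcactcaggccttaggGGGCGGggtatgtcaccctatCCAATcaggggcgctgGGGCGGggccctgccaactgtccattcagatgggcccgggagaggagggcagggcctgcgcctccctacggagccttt
ZNF766, chr19:52269437-52269586, plus strand: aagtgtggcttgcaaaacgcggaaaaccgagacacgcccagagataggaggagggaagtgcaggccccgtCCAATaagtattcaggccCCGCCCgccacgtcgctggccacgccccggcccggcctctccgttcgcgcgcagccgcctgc
ZNF281, chr1:200410037-200410186, minus strand: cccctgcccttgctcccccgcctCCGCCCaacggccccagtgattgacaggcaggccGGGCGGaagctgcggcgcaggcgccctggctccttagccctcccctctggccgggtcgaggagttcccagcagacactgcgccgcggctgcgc
ZNF217, chr20:53593840-53593989, minus strand: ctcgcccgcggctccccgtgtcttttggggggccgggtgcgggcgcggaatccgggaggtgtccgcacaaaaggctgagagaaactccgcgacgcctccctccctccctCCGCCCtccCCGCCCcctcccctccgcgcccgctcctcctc
ZNF91, chr19:23395472-23395621, minus strand: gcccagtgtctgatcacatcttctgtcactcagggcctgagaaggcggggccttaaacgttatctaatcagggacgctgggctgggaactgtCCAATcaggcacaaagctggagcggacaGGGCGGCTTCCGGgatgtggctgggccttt
ZNF418, chr19:57935403-57935552, minus strand: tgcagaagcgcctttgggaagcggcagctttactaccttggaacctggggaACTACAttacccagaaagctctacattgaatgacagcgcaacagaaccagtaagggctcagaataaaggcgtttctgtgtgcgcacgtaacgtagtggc
ZNF143, chr11:9460862-9461011, plus strand: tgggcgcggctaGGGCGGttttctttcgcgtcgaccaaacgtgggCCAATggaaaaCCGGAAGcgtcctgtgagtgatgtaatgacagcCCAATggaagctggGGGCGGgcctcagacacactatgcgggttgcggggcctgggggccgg
In these stretches ZNF627, ZNF217, ZNF281 and ZNF143 each hold 2 GC boxes, whatever their decay, and ZNF91 holds 1, joined to the ETS letters. Over the 250 bases the GC box stood in 70.6% of the promoters of members called lower in decay, near the shares given above.

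Most members were transcripts of moderate level. Their means ran from 6.01 to 11.87 with a median of 7.27, against a median of 8.34 for all genes with a mean of at least 6. The mean lay under 8 in 113 members and at 9 or more in 13. ZNF207, a spindle protein that carries the checkpoint factor BUB3 to kinetochores, was highest at 11.87, followed by ZNF664 at 11.43, ZNF595 at 11.09, ZNF706 at 11.07, ZNF24 at 9.82, ZNF121 at 9.79, ZNF266 at 9.59 and ZNF146 at 9.57. Just inside the threshold lay ZNF10 at 6.01, ZNF431 at 6.02 and ZNF239 at 6.10, and just outside lay ZNF432 at 5.99, ZNF614 at 5.99 and ZNF430 at 5.96. In all, 146 members were at 4 or more on every array, the floor taken for detection. The other 3, ZNF627, ZNF738 and ZNF503, each dropped under 4 on 1 array.
The median member signal in LNCaP was 7.11 with actinomycin D and caffeine, 6.76 with actinomycin D alone, 7.62 with caffeine and 7.41 untreated. In 22Rv1 it was 7.36 with actinomycin D and caffeine, 6.97 with actinomycin D alone, 7.90 with caffeine and 7.55 untreated. Both lines thus had their highest median with caffeine and their lowest with actinomycin D alone.

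**Figure D1:**
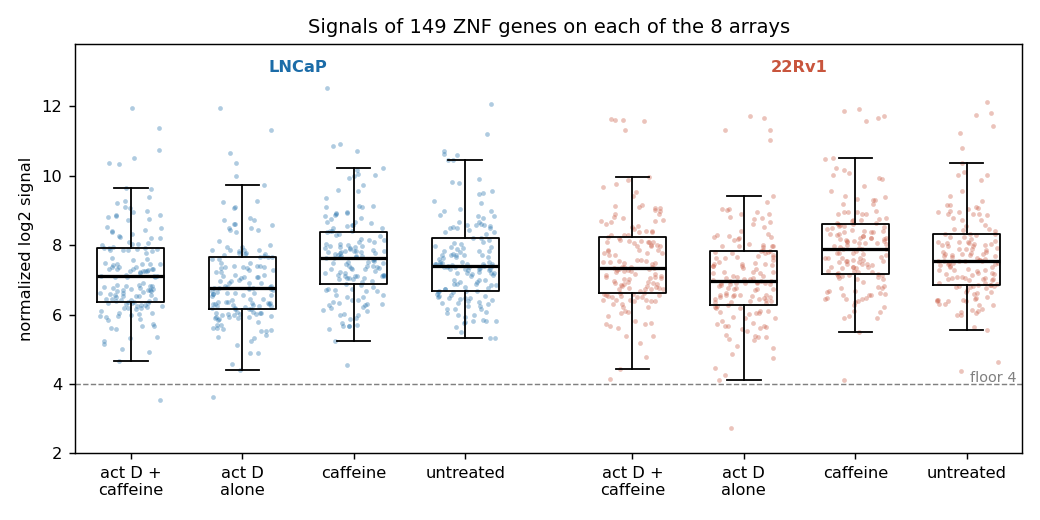
Normalized log2 signals of the 149 ZNF genes (vertical axis) on the 8 arrays, LNCaP in blue and 22Rv1 in red, 1 point per gene, with boxes for the quartiles, thick lines for the medians and whiskers to the last point within 1.5 times the box. The medians are lowest with actinomycin D alone, at 6.76 in LNCaP and 6.97 in 22Rv1, and highest with caffeine, at 7.62 and 7.90.

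Which ZNF transcripts were lost once transcription was stopped and NMD released was asked with the decay comparison. The members had lower signals with actinomycin D alone than with caffeine, with a median difference of -0.66 for LNCaP and -0.66 for 22Rv1, against -0.10 and 0.02 for all genes of this level. A decay below 0 in both lines was seen in 111 of 149 members (74.5%), against 38.0% of all genes, and a decay of -1 or lower in both lines in 37 members (24.8%), against 5.03%. Within LNCaP 48 members (32.2%) were lower by at least 1 and 3 (2.01%) higher, where 9.9% and 2.97% of all genes were. Within 22Rv1 59 (39.6%) were lower and 3 (2.01%) higher, against 8.97% and 2.24% of all genes. The order stayed the same among genes of like level. The 113 members with a mean under 8 had median decays of -0.70 in LNCaP and -0.84 in 22Rv1, against -0.17 and -0.02 for the 3439 genes with a mean of 6 to 8, and the 36 members above had -0.49 and -0.46, against -0.06 and 0.04 for 4730 genes.
limma called 19 members (12.8%) lower and 1 (0.671%) higher in decay over both lines, where 2.29% and 0.159% of all genes with a mean of at least 6 were called. At an unadjusted p under 0.05 the counts were 67 lower and 2 higher of 149, where 14.6% and 6.86% of all genes were. These calls depend on the spread that the other treatments lend. No member was called with only the 4 arrays compared, without the block for the line, or without any one of the 6 treated arrays, and 9 of the 20 calls were left without either untreated array. Several genes called lower, among them ZNF627, ZNF92, ZNF766, ZNF3 and ZNF408, were under 6 with actinomycin D alone in both lines. Such genes passed the threshold through the other arrays, so their decays and the counts that include them are descriptions. The background genes passed the same threshold.

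**Figure D2:**
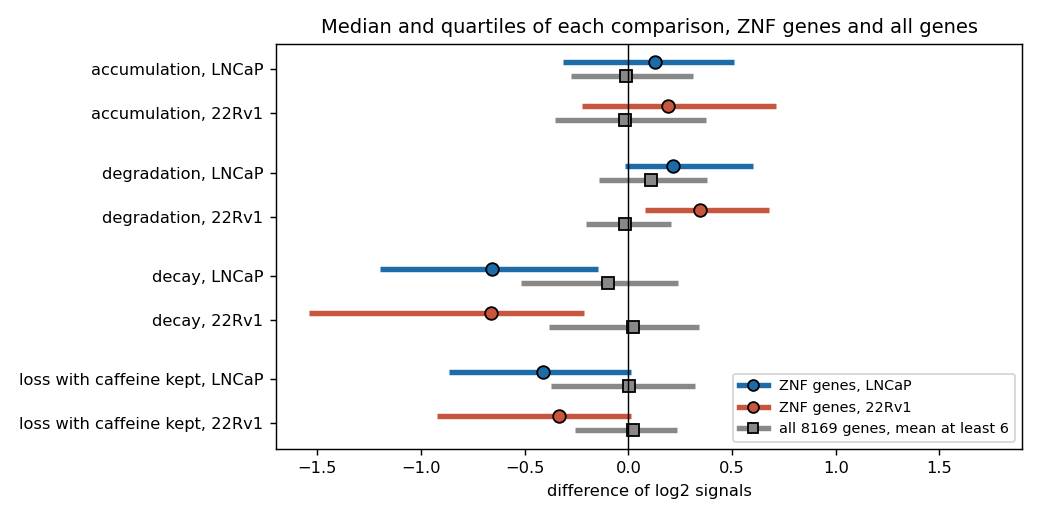
Median (symbol) and quartiles (bar) of the difference of log2 signals on the horizontal axis, for each comparison and line, for the ZNF genes in blue (LNCaP) or red (22Rv1) and for all 8169 genes with a mean of at least 6 in grey. In decay the ZNF medians are -0.66 in both lines while those of all genes are -0.10 and 0.02, and in degradation the ZNF medians are 0.21 and 0.34.

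ZNF627, a chromosome 19 gene, had the lowest decay of the members in LNCaP and, as deposited, in 22Rv1. Its log2 signal in LNCaP was 6.16 with actinomycin D and caffeine, 4.40 with actinomycin D alone, 8.41 with caffeine and 8.78 untreated. In 22Rv1 it was 4.15 with actinomycin D and caffeine, 2.74 with actinomycin D alone, 7.96 with caffeine and 8.17 untreated. The 4 arrays with actinomycin D lay below the 4 without it, and the lowest lay under the floor of 4. Over both lines ZNF627 fell by 4.62 on the log2 scale (standard error 0.43, adjusted p = 0.0263 from limma). With the undetected signal set to 4 its decay was -4.01 in LNCaP and -3.96 in 22Rv1, a mean of -3.99, and ZNF217 then had the lowest decay in 22Rv1.
ZNF92, a KRAB gene related to ZNF91, had 6.18 with actinomycin D and caffeine, 5.99 with actinomycin D alone, 8.57 with caffeine and 8.32 untreated in LNCaP. The 22Rv1 signals were 6.40 with actinomycin D and caffeine, 4.47 with actinomycin D alone, 8.18 with caffeine and 7.97 untreated. Over both lines ZNF92 fell by 3.14 in limma (standard error 0.41, adjusted p = 0.0313), and again no array with actinomycin D reached the arrays without it.
ZNF281 encodes a factor that binds GC-rich promoters and is known from stem cells. LNCaP gave 6.81 with actinomycin D and caffeine, 6.24 with actinomycin D alone, 8.86 with caffeine and 8.14 untreated. In 22Rv1 cells 7.98 was measured with actinomycin D and caffeine, 6.57 with actinomycin D alone, 9.30 with caffeine and 8.97 untreated. It fell by 2.67 (standard error 0.27, adjusted p = 0.0264 from limma). Its other probe sets, which are dimmer, gave decays of -0.66 and -0.97 in LNCaP and of 0.41 and -2.60 in 22Rv1.
ZNF12, ZNF830 and ZNF766 fell by 2.65, 2.64 and 2.62, each at an adjusted p of 0.0264 from limma. ZNF12, a KRAB gene, had decays of -2.89 in LNCaP and -2.41 in 22Rv1, but a pair of its dimmer probe sets gave 1.60 and 1.61 in LNCaP and -0.85 and -2.04 in 22Rv1. ZNF830, a protein of the spliceosome, had -2.74 and -2.55, and another probe set of it gave -2.96 and -3.15. ZNF766 had -2.18 and -3.07 and no other probe set with a mean of at least 4.
The remaining genes among the 10 smallest p-values also fell, with estimates over both lines of -2.22 for ZNF823, -2.05 for ZNF3, -2.35 for ZNF408 and -1.82 for ZNF567 and adjusted p from 0.0265 to 0.0281 in limma. ZNF408, known from an inherited disease of retinal vessels, is read by an x-type probe set that may share signal with related genes. ZNF121 among the most abundant members also fell, by 1.71 (adjusted p = 0.0396 from limma). Its LNCaP signals were 9.65 with actinomycin D and caffeine, 8.11 with actinomycin D alone, 9.98 with caffeine and 10.63 untreated, and those of 22Rv1 were 9.68 with actinomycin D and caffeine, 8.96 with actinomycin D alone, 10.50 with caffeine and 10.80 untreated. The other 8 called lower, ZNF93 among them, had estimates from -2.36 to -1.50.
ZNF91, a KRAB repressor of SVA retroelements, was the one member called higher in decay. Its signal in LNCaP was 8.45 with actinomycin D and caffeine, 9.10 with actinomycin D alone, 6.15 with caffeine and 8.21 untreated. The 22Rv1 arrays read 9.89 with actinomycin D and caffeine, 9.05 with actinomycin D alone, 6.49 with caffeine and 8.10 untreated. Only the caffeine arrays stood low, and the estimate over both lines was 2.76 (standard error 0.41, adjusted p = 0.0371 from limma). Its decay stayed above 0 with arrays centred on the poly-A controls.
In all, 10 members (6.71%) had a decay above 0 in both lines, against 32.6% of all genes, and 9 of the 10 were not called. The 5 highest of these by the smaller value were ZNF226 at 1.04 in LNCaP and 0.61 in 22Rv1, ZNF652 at 0.61 and 0.62, ZNF747 at 0.50 and 0.62, ZNF316 at 0.21 and 0.25, and ZNF32 at 0.20 and 0.58. These would lie below 0 with arrays centred on the poly-A controls. Another probe set of ZNF226, nearly as bright, gave decays of -0.46 in LNCaP and -1.40 in 22Rv1. Those of ZNF747 gave 0.26 and -0.51 in LNCaP and -0.71 and 0.70 in 22Rv1. Those of ZNF652 gave 2.54 and 0.32 in LNCaP and 1.14 and 0.24 in 22Rv1.

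**Figure D3:**
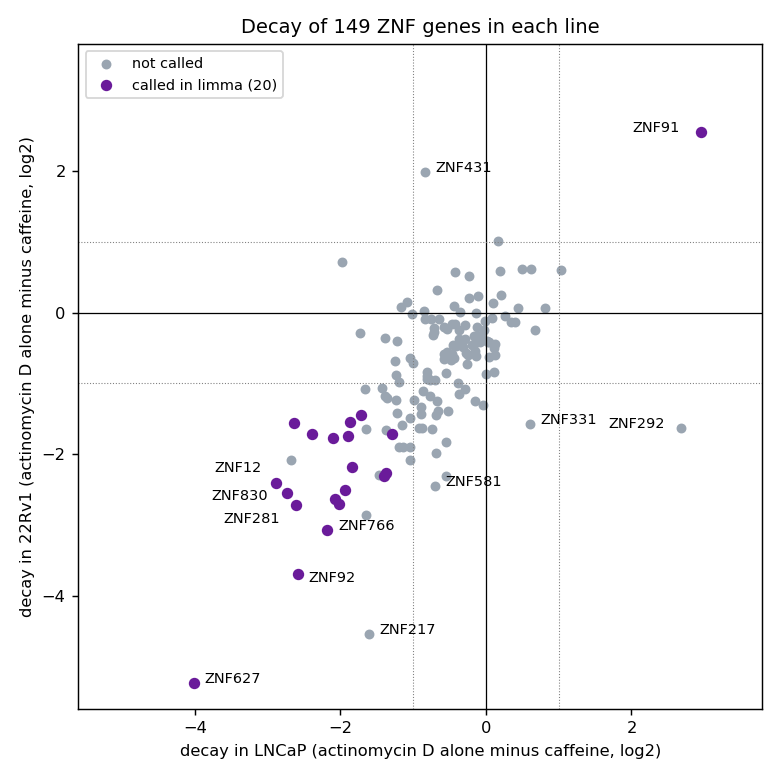
Decay (actinomycin D alone minus caffeine, log2) of each of the 149 ZNF genes in LNCaP on the horizontal axis and in 22Rv1 on the vertical axis, with the 20 genes called in limma in purple and dotted lines at 1 and -1. Most points lie at the lower left, with ZNF627 at -4.01 and -5.23, while ZNF91 stands alone at the upper right.

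Some members differed between the lines in decay, which was not tested. ZNF217, an oncogene amplified in breast cancer, had 5.32 with actinomycin D and caffeine, 7.49 with actinomycin D alone, 9.10 with caffeine and 9.79 untreated in LNCaP. In 22Rv1 the signals were 4.42 with actinomycin D and caffeine, 4.11 with actinomycin D alone, 8.65 with caffeine and 9.56 untreated. The lines had nearly equal levels without actinomycin D, and with actinomycin D alone LNCaP kept more, which gave decays of -1.61 and -4.54. ZNF331, an imprinted KRAB gene, had decays of 0.60 in LNCaP and -1.57 in 22Rv1, although another probe set gave -0.80 and -1.83. Such a value of 0.60, or the 0.72 of ZNF827 below, would be under 0 with poly-A centring. ZNF431 went the other way at -0.84 and 1.98, ZNF827, which brings a histone deacetylase complex to telomeres, at -1.97 and 0.72, and ZNF326 at -1.73 and -0.29. Another probe set of ZNF827 gave -0.90 in LNCaP and -2.36 in 22Rv1, a gap in the opposite direction, and another of ZNF326 gave -1.41 and 0.39.

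By role, the 7 KRAB repressors with a known target or partner had median decays of -0.75 in LNCaP and -0.84 in 22Rv1. Of these 1 (14.3%) was called higher, ZNF91, and 1 (14.3%) lower, ZNF93, a repressor of LINE-1 elements. The shares of all genes were 0.159% higher and 2.29% lower. ZNF93 read 5.0 with actinomycin D and caffeine, 4.58 with actinomycin D alone, 5.86 with caffeine and 5.51 untreated in LNCaP, and 7.50 with actinomycin D and caffeine, 6.56 with actinomycin D alone, 8.27 with caffeine and 8.33 untreated in 22Rv1. The estimate over both lines was -1.5 (adjusted p = 0.0482 from limma), on an x-type probe set, and its other probe set gave 0.34 in LNCaP and -1.62 in 22Rv1. Values for those not called were -0.75 and -1.65 for ZNF274, which marks ZNF gene clusters with SETDB1, -0.89 and -1.33 for ZNF420, a regulator of p53, -0.32 and -0.48 for ZNF445, a keeper of imprints, -0.84 and -0.10 for ZNF268, and 0.11 and -0.84 for ZNF10, in which the KRAB domain was first studied.
The 17 promoter, chromatin and mitotic factors had medians of -0.55 and -0.58, with 1 (5.88%) called lower, ZNF281. ZNF644, a partner of the G9a methyltransferase, had decays of -1.47 in LNCaP and -2.30 in 22Rv1 (adjusted p = 0.0562 from limma). ZNF503, a developmental repressor, had -2.68 and -2.08 (adjusted p = 0.0938 from limma), with an LNCaP signal of 3.62 with actinomycin D alone, under the floor. ZNF335, of a histone H3 methyltransferase complex, had -1.43 and -1.07, and ZNF592, of a complex with ZMYND8, -0.55 and -1.82, while its partner ZNF532 was at 0.34 and -0.14. ZNF143 was at 0.01 and -0.40, and its paralog ZNF76 at 0.10 and 0.14. The rest lay between -0.72 and 0.04, among them ZNF207 at -0.57 and -0.20 and ZNF24 at -0.44 and -0.64, save for ZNF217 and ZNF827 given above.
All 7 RNA, splicing and ribosome factors had decays below 0 in both lines, with medians of -0.66 and -0.46, and 1 (14.3%) was called lower, ZNF830. ZNF622, which acts in assembly of the large ribosomal subunit, had -0.66 and -1.39. ZNF326, which links splicing to RNA polymerase, is given above, ZNF593, of the large ribosomal subunit pathway, had -0.71 and -0.27, and ZNF106, an RNA-binding protein, -0.41 and -0.47. ZNF638 was at -0.37 and -0.37, and ZNF598, the ubiquitin ligase that senses collided ribosomes, at -0.19 and -0.46.

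The 58 members on chromosome 19 had median decays of -0.77 in LNCaP and -0.99 in 22Rv1, against -0.54 and -0.46 for the 91 members elsewhere. The 443 other genes on chromosome 19 with a mean of at least 6 were at 0.03 and 0.20. On chromosome 19 limma called 9 of the 58 members lower and 1 higher, and elsewhere 10 of the 91 lower and 0 higher. Of the 443 other genes on chromosome 19, 9 (2.03%) were called lower and 0 higher. Whether the members on chromosome 19 and those elsewhere differ in these shares was not tested. The 88 members that lie next to another ZNF gene had -0.62 and -0.85, and the 61 without such a neighbour -0.66 and -0.56, a small gap in LNCaP. Members read by a probe set of the plain type, 102 in all, had -0.72 and -0.84, and the 47 read by an s-type or x-type probe set, which may bind transcripts of related genes, -0.41 and -0.42.
Related families at the same level were also below 0. The 7 ZSCAN and ZKSCAN genes, whose SCAN domain pairs such proteins, had median decays of -0.90 in LNCaP and -1.06 in 22Rv1 with 2 (28.6%) called lower. The 8 ZFP genes had -0.98 and -1.07. The 23 ZBTB genes, with a BTB domain in place of KRAB, had -0.30 and -0.53 with 1 (4.35%) called in each direction. The 13 ZNF genes with a letter after the number had -0.32 and -0.32. Over all genes with a mean of at least 6 the shares called were 2.29% lower and 0.159% higher.

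The degradation comparison asks which transcripts were kept by caffeine once transcription had stopped. The members' median was 0.21 for LNCaP and 0.34 for 22Rv1, against 0.11 and -0.02 for all genes. The value was above 0 in both lines in 88 members (59.1%), against 32.7% of all genes, and below 0 in both in 7 (4.70%), against 23.4%. At least 1 higher were 14 members (9.4%) in LNCaP and 17 (11.4%) in 22Rv1, where 4.15% and 2.52% of all genes were, and at least 1 lower 3 and 0, where 2.36% and 0.575% were. limma called 0 members, with 26 higher and 0 lower of 149 at an unadjusted p under 0.05, where 5.56% and 1.15% of all genes were, and a smallest adjusted p of 0.327.
ZNF581 was highest by the smaller value of the lines. Its LNCaP signal was 8.88 with actinomycin D and caffeine, 7.13 with actinomycin D alone, 7.83 with caffeine and 7.96 untreated, and in 22Rv1 it was 9.01 with actinomycin D and caffeine, 6.74 with actinomycin D alone, 9.20 with caffeine and 8.97 untreated. In each line the signal was lowest with actinomycin D alone, which gives degradations of 1.75 and 2.27 (adjusted p = 0.371 from limma). ZNF627 followed at 1.75 and 1.41, but its 22Rv1 signal with actinomycin D alone was under the floor, and with that signal set to 4 the value was 0.15. Next were ZNF408 at 1.15 and 0.99, ZNF12 at 1.86 and 0.98, ZNF282, which was named for binding a retroviral repeat, at 0.95 and 1.57, and ZNF3 at 1.28 and 0.92.
Those below 0 in both lines were small differences. ZNF672 was at -0.30 and -0.64, ZNF362 at -0.11 and -0.11, ZNF330 at -0.30 and -0.08, ZNF580, the neighbour of ZNF581, at -0.07 and -0.14, ZNF532 at -0.06 and -0.04 and ZNF704 at -0.21 and -0.02. Except for ZNF672 in 22Rv1, these would lie above 0 with arrays centred on the poly-A controls.
Lines differed most for ZNF217 (-2.17 in LNCaP and 0.31 in 22Rv1), ZNF738 (-2.08 and 0.61) and ZNF43 (-0.68 and 1.23) on one side, and for ZNF503 (2.05 and -0.12), ZNF593 (1.45 and -0.04) and ZNF48 (0.71 and -0.64) on the other. The LNCaP values of ZNF738 and ZNF503 rest on a signal under the floor, and with it set to 4 they were -1.63 and 1.67. None of these gaps was tested. The LNCaP values use the array with high 18S signal.
On chromosome 19 the member medians were 0.29 for LNCaP and 0.50 for 22Rv1, and elsewhere 0.19 and 0.32, against 0.24 and -0.11 for the other genes of chromosome 19. The 7 KRAB repressors had 0.36 and 0.08, the 17 promoter, chromatin and mitotic factors 0.19 and 0.32, and the 7 RNA, splicing and ribosome factors 0.37 and 0.40.

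With caffeine kept through the actinomycin D step, members were still below the caffeine arrays. The median loss was -0.41 in LNCaP and -0.33 in 22Rv1, against 0.00 and 0.02 for all genes, and it was below 0 in both lines in 89 members (59.7%), against 29.9%. At least 1 lower were 29 members (19.5%) in LNCaP and 36 (24.2%) in 22Rv1, where 6.71% and 5.37% of all genes were, and at least 1 higher 4 in each, where 3.21% and 1.21% were. In both lines at once 15 members (10.1%) were lower by at least 1, against 1.51% of all genes. limma called 0 members, with 37 lower and 2 higher of 149 at an unadjusted p under 0.05, where 7.33% and 4.11% of all genes were, and a smallest adjusted p of 0.115.
ZNF217 was lowest at -3.79 in LNCaP and -4.23 in 22Rv1, with a standard error of 0.76 over both lines and an adjusted p of 0.162 from limma. ZNF627 was at -2.26 and -3.82, ZNF92 at -2.39 and -1.78, ZNF830 at -1.55 and -2.04, ZNF766 at -1.35 and -1.86 and ZNF281 at -2.05 and -1.32.
Above the caffeine arrays stood ZNF91 at 2.30 and 3.40 (adjusted p = 0.116 from limma), ZNF226 at 1.20 and 0.63, ZNF692, a regulator of gluconeogenic genes, at 0.59 and 0.28, ZNF511 at 0.27 and 0.34, ZNF721 at 0.27 and 0.35 and ZNF621 at 0.24 and 0.25. With poly-A centring ZNF91 stays above 0, ZNF226 would be at 0.01 in LNCaP and below 0 in 22Rv1, and the other 4 would lie below 0. Another probe set gave -0.39 and -1.20 for ZNF226, -0.26 and -1.27 for ZNF721, and 1.08 and 0.09 for ZNF621. ZNF493 differed between the lines, with 0.15 in LNCaP and 2.74 in 22Rv1, and ZNF431 likewise, with -0.39 and 2.83.

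**Figure D4:**
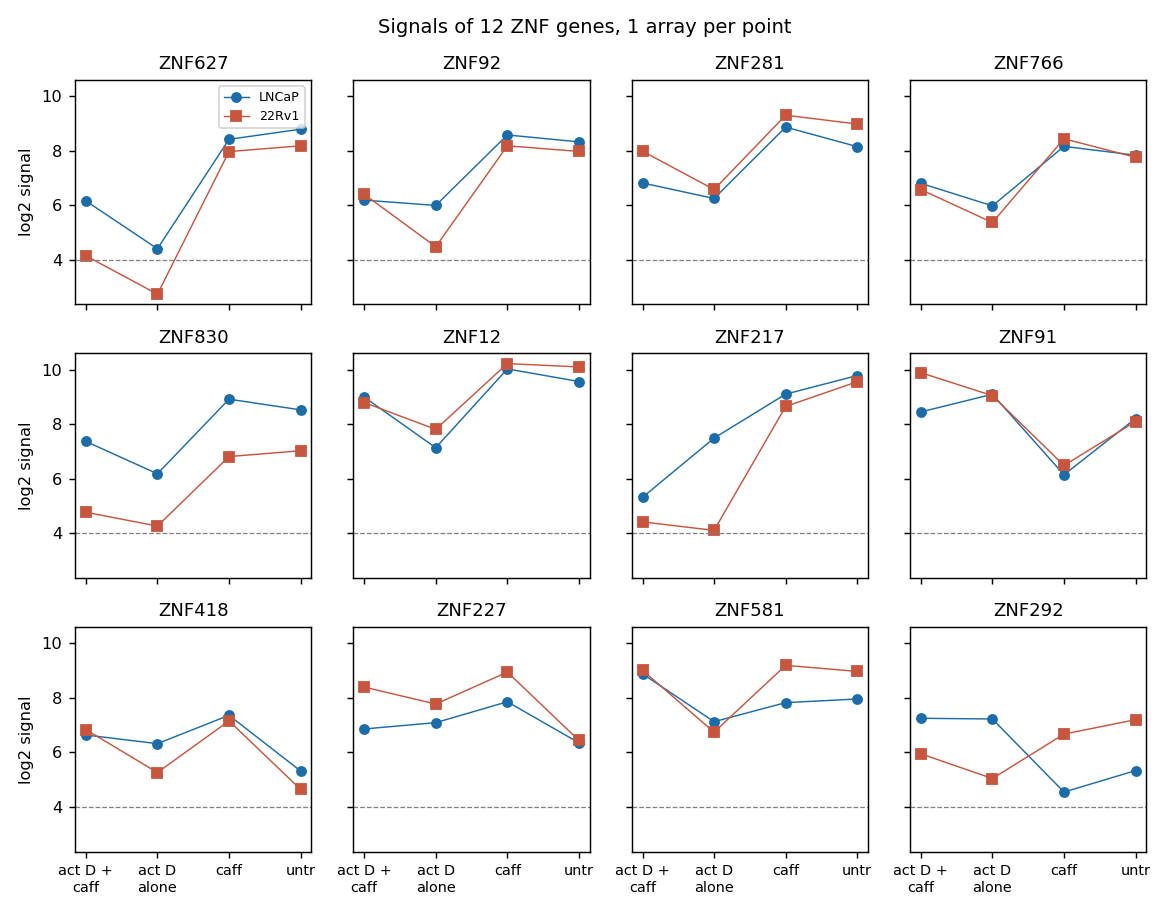
Normalized log2 signal (vertical axis) of 12 ZNF genes on the array of each treatment (act D is actinomycin D, caff caffeine, untr untreated), LNCaP as blue circles and 22Rv1 as red squares, with thin lines joining the arrays of a line and a dashed line at the floor of 4. ZNF627, ZNF92, ZNF281, ZNF766, ZNF830 and ZNF12 are lowest with actinomycin D alone in both lines, and ZNF91 is lowest with caffeine.

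Accumulation, the first step, compares caffeine with no treatment. The median member was at 0.13 in LNCaP and 0.19 in 22Rv1, against -0.01 and -0.02 for all genes, and 68 members (45.6%) were above 0 in both lines, against 34.1%. At least 1 higher were 12 members (8.05%) in LNCaP and 25 (16.8%) in 22Rv1, where 4.97% and 7.54% of all genes were, and at least 1 lower 5 (3.36%) and 4 (2.68%), where 2.07% and 4.82% were. The members' shares were above the background except for those lower in 22Rv1. limma called 0 members, with 26 higher and 8 lower of 149 at an unadjusted p under 0.05, where 11.3% and 7.54% of all genes were, and a smallest adjusted p of 0.0691.
That smallest p belonged to ZNF418, a KRAB gene of chromosome 19. In LNCaP it read 6.64 with actinomycin D and caffeine, 6.32 with actinomycin D alone, 7.36 with caffeine and 5.32 untreated. In 22Rv1 it read 6.84 with actinomycin D and caffeine, 5.26 with actinomycin D alone, 7.16 with caffeine and 4.65 untreated. The untreated array was the lowest of each line, and the accumulation was 2.04 and 2.51 with a standard error of 0.33 over both lines.
ZNF227, also a KRAB gene of chromosome 19, had 6.86 with actinomycin D and caffeine, 7.09 with actinomycin D alone, 7.86 with caffeine and 6.36 untreated in LNCaP, and 8.40 with actinomycin D and caffeine, 7.78 with actinomycin D alone, 8.95 with caffeine and 6.44 untreated in 22Rv1. Its accumulation was 1.50 and 2.51 (adjusted p = 0.0874 from limma), and another probe set gave 1.60 and 2.52. ZNF211 had 1.41 and 1.52 (adjusted p = 0.0749 from limma), ZNF408 1.36 and 1.25, ZNF26 1.10 and 2.16, and ZNF326 1.08 and 1.25.
Below the untreated arrays in both lines were ZNF91 at -2.06 and -1.61 (adjusted p = 0.12 from limma), ZNF503 at -1.15 and -1.95, ZNF747 at -1.61 and -0.95, ZNF395, known from the response to low oxygen, at -0.79 and -1.16, ZNF48 at -0.99 and -0.74 and ZNF217 at -0.68 and -0.91. For ZNF747 a pair of other probe sets gave -0.91 and -1.53 in LNCaP and -1.42 and -1.98 in 22Rv1.
ZNF586 (0.88 in LNCaP and 2.37 in 22Rv1), ZNF239 (-2.09 and -0.55) and ZNF331 (-0.17 and 1.66) were higher in 22Rv1, and ZNF652, a repressor that works with CBFA2T3, (-0.52 and -2.33), ZNF318 (0.60 and -0.85) and ZNF175 (0.69 and -0.66) in LNCaP. These gaps were not tested. The untreated signal of ZNF652 was 8.51 in LNCaP and 8.79 in 22Rv1, and that with caffeine 7.99 and 6.46. Its other probe sets, which are dimmer, gave accumulations of -1.97 and 0.50 in LNCaP and of -1.43 and 0.04 in 22Rv1, so this gap depends on the probe set.
By role, the KRAB repressors had medians of -0.09 and 0.26 (the first above 0 with poly-A centring), the promoter, chromatin and mitotic factors 0.42 and 0.06, and the RNA, splicing and ribosome factors 0.26 and 0.26. Members on chromosome 19 had 0.14 and 0.22 and those elsewhere 0.12 and 0.15, against -0.12 and -0.15 for the other genes of chromosome 19.

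The lines differed in many ZNF genes, as in all genes. limma called 18 members (12.1%) higher and 43 (28.9%) lower in LNCaP than in 22Rv1, where 29.3% and 26.2% of all genes with a mean of at least 6 were called. The median line difference of the members was -0.13, against 0.08 for all genes. This order depends on the scale, since with arrays centred on the poly-A controls 40 members were called higher and 21 lower and the medians were 0.31 and 0.51.
ZNF789 had the largest difference. Its LNCaP signals were 6.12 with actinomycin D and caffeine, 6.36 with actinomycin D alone, 7.36 with caffeine and 7.37 untreated. Those of 22Rv1 were 11.65 with actinomycin D and caffeine, 11.02 with actinomycin D alone, 11.73 with caffeine and 12.13 untreated. No LNCaP array came near the lowest of 22Rv1, and the difference was -4.83 (standard error 0.22, adjusted p = 3.88e-05 from limma). Its 3 other probe sets gave -4.02, -4.45 and -4.92.
ZNF592 was lower in LNCaP by -2.44 (adjusted p = 0.00122), ZNF93 by -2.42 (adjusted p = 0.000207), ZNF738 by -2.27 (adjusted p = 0.0173), ZNF503 by -2.07 (adjusted p = 0.00714) and ZNF512 by -2.03 (adjusted p = 0.0044), all from limma. The 4 LNCaP signals of ZNF93 were 4.58 to 5.86, against 6.56 to 8.33 in 22Rv1. ZNF738 and ZNF503 each had an LNCaP array under the floor, at 3.54 with actinomycin D and caffeine for ZNF738 and at 3.62 with actinomycin D alone for ZNF503. The 2 lines overlapped for ZNF503, whose LNCaP signals reached 7.45 untreated, above the 6.21 and 6.33 of 22Rv1 with actinomycin D.
ZNF830 was higher in LNCaP by 2.03 (adjusted p = 0.000656), ZNF232 by 1.92 (adjusted p = 0.000783), ZNF511 by 1.68 (adjusted p = 0.000936), ZNF32 by 1.47 (adjusted p = 0.000839), ZNF211 by 1.32 (adjusted p = 0.00136) and ZNF239 by 1.3 (adjusted p = 0.0116), all from limma. ZNF511 read 10.50 with actinomycin D and caffeine, 9.99 with actinomycin D alone, 10.23 with caffeine and 10.60 untreated in LNCaP, and 8.89 with actinomycin D and caffeine, 8.76 with actinomycin D alone, 8.55 with caffeine and 8.42 untreated in 22Rv1, so that the lines did not overlap. ZNF830 overlapped between the lines, since it fell in decay in both. Within 1 line, ZNF93, ZNF738 and ZNF503 averaged under 6 in LNCaP, and ZNF830 and ZNF239 did so in 22Rv1. These genes thus passed the threshold through the line where they are high, and their line differences are descriptions. The same holds for others called lower in LNCaP, such as ZNF43, ZNF320 and ZNF316, each under 6 on every LNCaP array. The counts of calls above and the shares of the role lists below include such genes and are descriptions too.
Among the 8 most abundant members, ZNF595 was lower in LNCaP by -1.11 (adjusted p = 0.00158 from limma), ZNF706 by -0.73 (adjusted p = 0.00664 from limma) and ZNF664 by -0.48 (adjusted p = 0.0392 from limma). ZNF207 was higher by 0.50 (adjusted p = 0.0406 from limma), but 4 of its 6 other probe sets had the opposite sign, so its direction depends on the probe set. In the role lists, the 1 KRAB repressor called (14.3%) was ZNF93, lower in LNCaP, and of the 17 promoter, chromatin and mitotic factors 2 were called higher and 6 lower (11.8% and 35.3%). Of the 7 RNA, splicing and ribosome factors 3 were called higher and 1 lower (42.9% and 14.3%). The background shares are the 29.3% and 26.2% given above.

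**Figure D5:**
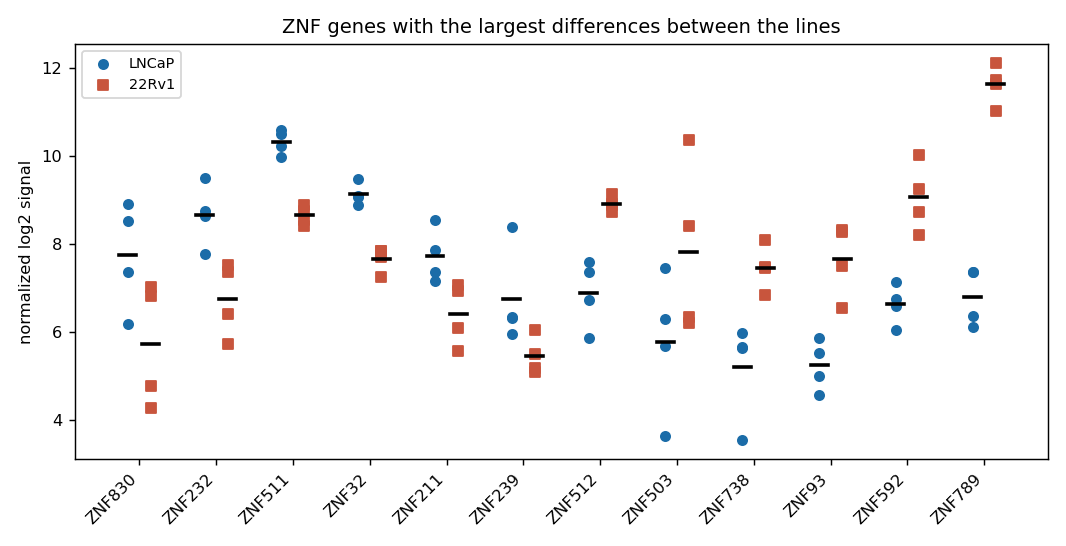
Normalized log2 signals (vertical axis) of the 12 ZNF genes with the highest and the lowest mean line differences, with the 4 arrays of LNCaP as blue circles beside the 4 of 22Rv1 as red squares, and the mean of each as a black bar. ZNF789 is farthest apart, at 6.12 to 7.37 in LNCaP and 11.02 to 12.13 in 22Rv1, and ZNF503 overlaps between the lines.

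Probe sets of one gene did not always move together, which limits what is said of single members. For 72 members another probe set with a mean of at least 4 was measured, 100 in all. The sign of the difference matched that of the member's own probe set in 63 of 100 for decay in LNCaP and 70 in 22Rv1, in 56 and 71 for degradation, in 64 and 65 for the loss with caffeine kept, and in 59 and 69 for accumulation. In LNCaP several such probe sets were high with actinomycin D alone. One of ZNF24 gave a decay of 3.84 in LNCaP and 0.57 in 22Rv1, one of ZNF106 3.19 and 0.52, one of ZNF451, a SUMO ligase, 3.56 and 1.66, and 3 of ZNF148, a relative of ZNF281, gave 2.27 to 2.50 in LNCaP and -0.61 to -0.04 in 22Rv1. The members' own probe sets for these 4 genes were at -0.53 to -0.26 in LNCaP and -0.72 to -0.23 in 22Rv1. ZNF91, ZNF627, ZNF217 and ZNF766 had no other probe set at a mean of 4. Which part of each transcript a probe set covers, exon, intron or untranslated end, was not analysed here.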

How the data were processed

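The values are log2 signals of U133 Plus 2.0 arrays from Affymetrix, to which the authors had applied gcRMA (background correction, quantile normalization and a summary of each probe set) before they were deposited. RMA and GCRMA stand in the submitters' processing notes without a version. Probe sets were named from the platform annotation, and all 149 members matched RefSeq (GRCh38.p14) by symbol. Array number, 1 per treatment and line, limits the precision. limma 3.58.1 in R 4.3.3 fitted treatment and line over 8 arrays, with 3 residual and 2.93 prior degrees of freedom, on the 21453 probe sets whose mean was 4 or more, and was tested on simulated data. Genes named are, per comparison, the 6 highest and 6 lowest by the smaller difference of the lines, calls (at most 10 per direction), the 3 largest gaps each way, the 8 most abundant, 3 either side of the threshold, and role lists. Members and lists were chosen with earlier results of these data known. Protein motifs were planned but not analysed here. Alternatives were other filters, variance models, centring, probe sets, cut-offs and arrays left out. Tables and plots used python 3.11.15, numpy 2.4.6, pandas 2.3.3 and matplotlib 3.10.9.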

Additional observations from a re-analysis of the deposited data

Results flagged for a closer look

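ZNF292, a gene for a very large zinc finger protein, was the one member whose decay passed 1 in opposite directions in the 2 lines, at 2.68 in LNCaP and -1.63 in 22Rv1. Its LNCaP signals were 7.25 with actinomycin D and caffeine, 7.23 with actinomycin D alone, 4.55 with caffeine and 5.34 untreated. In 22Rv1 they were 5.95 with actinomycin D and caffeine, 5.04 with actinomycin D alone, 6.67 with caffeine and 7.20 untreated. That gap between lines was not tested, and over both lines limma gave no call (adjusted p = 0.823). Another probe set of ZNF292 gave decays of -1.08 in LNCaP and -1.98 in 22Rv1.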

How the results depend on the processing

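No paired analysis was possible because the arrays carry no replicate numbers, and the line is already the block. In decay the 19 lower and 1 higher ZNF calls became 0 and 0 with no filter, no block or only the 4 arrays compared, 30 lower with a mean of at least 6 (all 20 calls among them) and 140 lower with poly-A centring. Leaving out 1 array, which leaves 2 residual degrees of freedom and assumes that the lone array of a treatment varies like the others, gave 0 to 9 lower and 0 higher. In accumulation the 0 higher calls became 2 with a mean of at least 6, 1 with the mean of all probe sets and 1 with poly-A centring, and for the loss with caffeine kept poly-A centring gave 1 higher and 114 lower. For the line difference 18 higher and 43 lower became 8 and 26 with no block, 8 and 17 with no filter, 40 and 21 with poly-A centring, and 10 to 15 and 29 to 36 without an array. Poly-A centring shifts all genes alike, and the shares of all genes called under these settings are not given here.
With a cut-off of 1.3, members higher and lower in accumulation numbered 4 and 3 in LNCaP and 12 higher in 22Rv1, members higher in degradation 7 and 8, members lower in decay 31 in LNCaP, and in the loss with caffeine kept 2 higher and 16 lower in LNCaP and 20 lower in 22Rv1. With poly-A centring the medians in LNCaP and 22Rv1 were 0.33 and 0.47 for accumulation, 0.61 and 0.76 for degradation, -2.24 and -1.84 for decay and -1.60 and -1.10 for the loss with caffeine kept. Those of all genes with a mean of at least 6 were 0.19 and 0.26, 0.51 and 0.40, -1.68 and -1.16, and -1.19 and -0.74. The member counts past 1 with poly-A centring were 3 lower in accumulation in LNCaP, 37 and 45 higher in degradation, 142 and 135 lower in decay with 1 higher in 22Rv1, and 123 and 90 lower with 2 higher in LNCaP for the loss with caffeine kept. The shares of all genes past 1.3, or past 1 with poly-A centring, are not given here. These counts are therefore not read as particular to ZNF genes. With the mean of all probe sets the LNCaP medians were 0.058 for accumulation, -0.54 for decay and -0.34 for the loss with caffeine kept, the 22Rv1 decay was -0.64, and 6 members were higher in decay in LNCaP.
The sign turned in another probe set for the decay of ZNF12 (0.38) and for the line differences of ZNF207 (-0.23, -0.41, -0.28 and -1.46, and -0.0089 as the mean of all its probe sets), ZNF621 (0.41), ZNF638 (1.36) and ZNF652 (-0.67). All medians of the 4 treatment comparisons kept their sign under every alternative run.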

Other observations

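The corepressor complex that KRAB zinc finger proteins recruit (TRIM28, SETDB1, the HP1 proteins, the HUSH complex, histone deacetylases with the CHD proteins, DNA methyltransferases and partners) was read from a list of 23 symbols, of which 22 had a probe set and 21 a mean of at least 6. Its median decay was -0.32 in LNCaP and 0.01 in 22Rv1, beside -0.66 and -0.66 for the ZNF members and -0.10 and 0.02 for all genes with a mean of at least 6. Decay was lower by at least 1 in 5 of its genes (23.8%) in LNCaP and in 1 (4.76%) in 22Rv1, where 9.9% and 8.97% of all genes were. Its accumulation had a median of -0.16 for LNCaP and -0.27 for 22Rv1, both above 0 once arrays are centred on the poly-A controls. Lower by at least 1 in accumulation were 1 of its genes (4.76%) in LNCaP and 6 (28.6%) in 22Rv1, where 2.07% and 4.82% of all genes were, and 0 were higher by at least 1, where 4.97% and 7.54% were. Between the lines 4 of its genes (19%) were called higher in LNCaP and 6 (28.6%) lower, where 29.3% and 26.2% of all genes were. Whether the complex and the ZNF members differ was not tested.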
